A study of Caenorhabditis elegans with 3 samples.

Results

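The genes described here encode the retinoblastoma DREAM complex of the nematode Caenorhabditis elegans and a pair of repressors that act beside it. They were chosen by symbol as 10 class B synthetic multivulva (synMuv) genes: the pocket protein gene lin-35, its E2F and DP partners efl-1 and dpl-1, the MuvB core genes lin-9, lin-37, lin-52, lin-53 and lin-54, and the repressor genes mep-1 and hpl-2. All 10 had a single probe assigned to 1 gene and a value on every array, so they are 10 of the 15143 genes tested. RNA of late third-stage (late L3) hermaphrodite larvae, from the time course point labelled TP02, was hybridised on 2-colour arrays against a wild-type mixed reference. Larval preps 1, 2 and 3 had an array each, 3 arrays in all, and the other channel always held the common reference. The labels give no genotype or treatment for the larvae and do not give the stages or sexes in the reference. Whether the preps were separate cultures is not in the labels. The p-values reflect only how far these 3 samples differ, with the spread partly shared over all genes, and that spread may be technical.

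DREAM is a repressor complex of animal cells. A pocket protein of the retinoblastoma family bridges an E2F-DP heterodimer to the MuvB core, and the assembled complex sits on promoters of cell cycle and developmental genes. In worms, class B mutants that also lack a class A gene form extra vulvae, because the EGF gene lin-3 is expressed where it should be silent, and many class B mutants express germ line genes such as those of P granules in somatic cells. Vulval cell fates begin to be set earlier in the third larval stage than the late point sampled here.

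A value below is a log2 ratio of late L3 over reference after each array was centred on its median, so 0 is the median probe of the array. The direction is the likely one, taken from the sample descriptions, which name the larvae before the reference; the dyes and the numerator channel are unstated. With the other direction every sign would turn. The ratios say how each gene stood in the larvae relative to its own level in the reference, and they do not compare transcript levels between genes. In whole-animal RNA, fewer cells that express a gene and less RNA per cell cannot be told apart.

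The mean ratios of most of these genes were below 0 by modest amounts, and 8 of the 10 did not pass the test. Of the 10, 9 had a mean below 0, against 50.2% of all genes, and the exception was mep-1. The MuvB genes lin-52 and lin-54 were lower at an adjusted p under 0.05 (limma, Benjamini-Hochberg over all 15143 genes), 0 members were higher, and 8 did not pass. Across all genes 11.9% were called lower and 11.4% higher, so a count of 2 among 10 is close to that background. The means ran between -0.84 and 0.13 with a median of -0.54, while the median of all genes was -0.0023. The largest difference was 1.78-fold, for lin-52. At an unadjusted p under 0.05, 4 members were lower and 0 higher, and 17.9% of all genes were lower by that rule. Members stood below the array median on all 3 arrays in 5 cases, as did 29.2% of all genes. In no member did all 3 arrays stand above it, which 26.9% of all genes did.

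**Figure D1:**
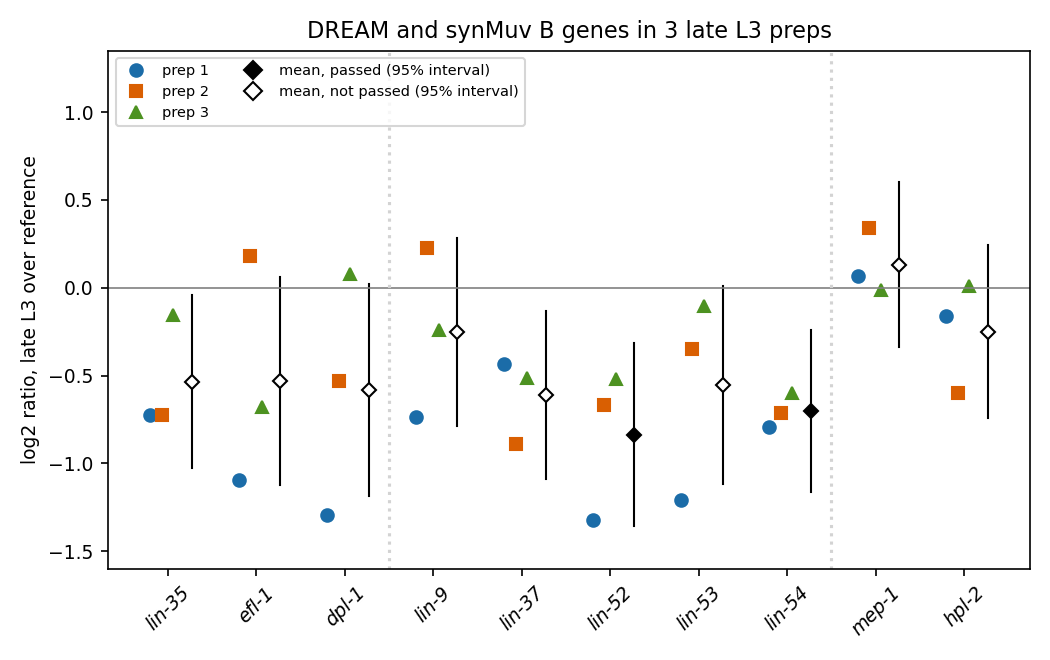
Log2 ratio of late L3 over reference (vertical axis) for each of the 10 genes in preps 1, 2 and 3, with the mean and its 95% interval from limma; filled diamonds mark an adjusted p under 0.05 and dotted lines separate the pocket protein and E2F genes, the MuvB core, and mep-1 and hpl-2. The means of lin-52 and lin-54 are the filled ones, and prep 1 is the lowest point for 7 of the genes.

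None of the pocket protein and E2F genes passed at the adjusted threshold. The gene lin-35 on chromosome I encodes the worm's retinoblastoma-family protein, which holds the E2F heterodimer to the MuvB core. It was at -0.73, -0.72 and -0.16 in preps 1, 2 and 3. All preps were below the median, with prep 3 much nearer to it than the others. The mean of -0.53 ± 0.33 (SD, n = 3) had a 95% interval of -1.03 to -0.04 and did not pass (limma adjusted p = 0.113).

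The gene efl-1 (V) encodes the E2F-like DNA-binding subunit. Its ratios were -1.09, 0.18 and -0.68. The preps fell on both sides of the median, and the mean of -0.53 ± 0.65 had an interval of -1.12 to 0.06 (limma adjusted p = 0.184). Its partner dpl-1 (II), the DP-like subunit, was at -1.29, -0.53 and 0.08. Here prep 3 was the one above the median. The mean was -0.58 ± 0.69, with an interval of -1.19 to 0.02 (limma adjusted p = 0.155). These 3 genes had similar means, but the order of the preps differed: efl-1 was highest in prep 2, whereas lin-35 and dpl-1 were highest in prep 3.

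Of the 5 MuvB core genes, 2 were lower and 3 did not pass, against 11.9% of all genes called lower. The group median was -0.61. The gene lin-54 (IV) encodes the subunit with a cysteine-rich DNA-binding domain that contacts promoters directly. It had -0.79, -0.71 and -0.60, the most even set of any member. Its SD of 0.10 was larger than that of only 5.71% of all genes. The mean of -0.70, 1.63-fold lower, had an interval of -1.16 to -0.24 and passed (limma adjusted p = 0.0339). The gene lin-52 (III) encodes the small subunit that links the core to the pocket protein. It was at -1.32, -0.67 and -0.52, below the median in every prep and furthest in prep 1. The mean of -0.84 ± 0.43 had an interval of -1.36 to -0.32 and passed (limma adjusted p = 0.0270). Only 9.49% of all genes had a lower mean.

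Both calls were close to the threshold. Without prep 1 or prep 2, lin-52 had adjusted p-values of 0.178 and 0.0820, and without prep 3 it passed at 0.0312. For lin-54, leaving out prep 1, 2 or 3 gave 0.123, 0.103 and 0.101, with means between -0.75 and -0.66.

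The gene lin-37 (III), another core subunit needed for repression by the complex, was at -0.43, -0.89 and -0.51. All preps were below the median and prep 2 was the lowest, unlike in most members. Its mean of -0.61 ± 0.25 had an interval of -1.09 to -0.13 and missed the threshold (limma adjusted p = 0.0658). The gene lin-53 (I) encodes a histone-binding WD-repeat protein that the core shares with other chromatin complexes. It had -1.21, -0.35 and -0.11, with prep 1 far below the other preps. The mean was -0.55 ± 0.58 (limma adjusted p = 0.149), and without prep 1 it was -0.23. The scaffold gene lin-9 (III) was at -0.74, 0.23 and -0.24. The preps fell on both sides of the median, the mean was -0.25 ± 0.48 (limma adjusted p = 0.495), and without prep 1 it was -0.0075.

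Neither of the repressor genes outside the complex passed. The gene mep-1 (IV) encodes a zinc finger protein that works with the chromatin remodeller LET-418 and a histone deacetylase. It was at 0.07, 0.34 and -0.01, with a mean of 0.13 ± 0.18 and an interval of -0.34 to 0.60 (limma adjusted p = 0.696). The gene hpl-2 (III), which encodes a heterochromatin protein of the HP1 family, was at -0.16, -0.60 and 0.0086. Its mean was -0.25 ± 0.32, with an interval of -0.74 to 0.24 (limma adjusted p = 0.453).

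**Figure D2:**
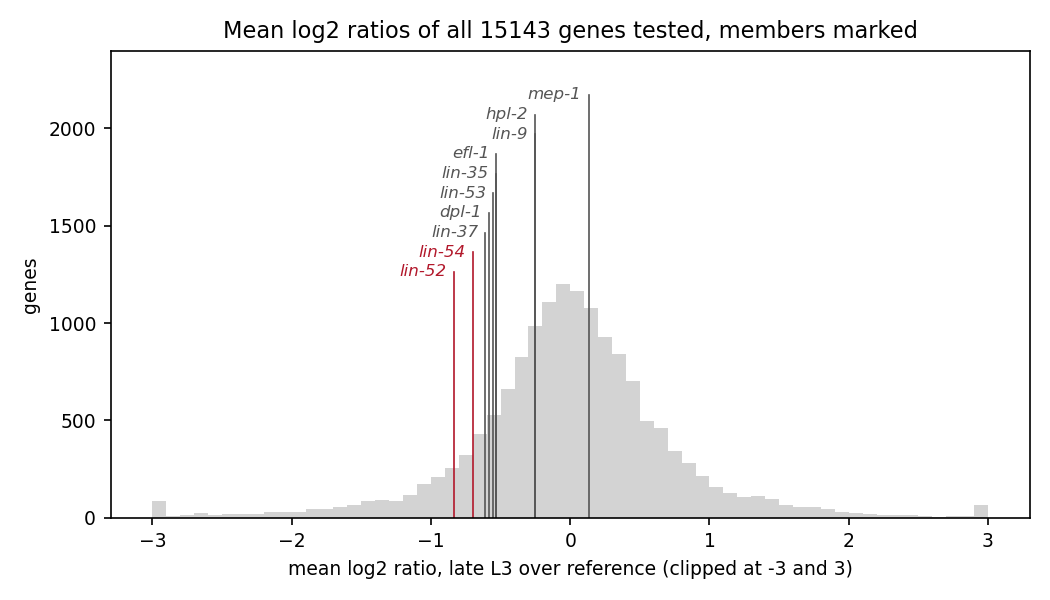
Number of genes (vertical axis) by mean log2 ratio of late L3 over reference (horizontal axis, values beyond 3 in either direction drawn at 3 and -3), with a vertical line at the mean of each member; red lines are members at an adjusted p under 0.05. Most member lines stand left of the centre of the distribution, between -0.84 and -0.25, and mep-1 stands right of it at 0.13.

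Ordered from the lowest mean, the members were lin-52, lin-54, lin-37, dpl-1, lin-53, lin-35, efl-1, lin-9, hpl-2 and mep-1. Of the 9 pairs of neighbours in this order, 8 had a mean gap smaller than the SD of that gap over the preps, so their order is not resolved. The exception was efl-1 against lin-9, with efl-1 lower in all preps and a gap of -0.28 ± 0.21. In prep 2 that gap was only -0.04, and the order of this pair was not tested. Of all 45 pairs, 16 kept one order on all 3 arrays, and this count was not set against an expected number. The ratio of mep-1 was above that of 7 other members in every prep, the exceptions being dpl-1 and hpl-2 in prep 3. The ratio of lin-52 minus that of mep-1 averaged -0.97 ± 0.44, and that of lin-54 minus mep-1 was -0.86, -1.05 and -0.59 in preps 1, 2 and 3. The genes of these gaps were picked from the ends of the order on the same arrays, so large gaps follow in part from that choice. The gaps compare ratios to the reference, not levels.

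The preps did not contribute equally. Prep 1 held the lowest value for 7 of the 10 members, against 34.1% of all genes. The median over the members was -0.76, -0.57 and -0.20 in preps 1, 2 and 3. All probes were also less spread on the array of prep 3, with a scaled median absolute deviation of 0.39, against 0.69 and 0.77 for preps 1 and 2. Each prep had its own array, so prep and array cannot be told apart.

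Ratios also drifted along the probe identifiers, and some members sat in stretches away from the array median. A running median along the probes was 0.70, 0.58 and 0.18 around the lin-37 probe in preps 1, 2 and 3, so lin-37 was low within a high stretch. With that drift subtracted, lin-37 was at -1.10 (limma adjusted p = 0.0072) and lin-35 at -0.70 (0.0446), and both passed. Around lin-53 the running median was -0.60, -0.45 and -0.08, and lin-53 was then at -0.18 (adjusted p = 0.590). For the other members lowest in prep 1, the running median of that prep went both ways. It was low around dpl-1 (-0.80), lin-52 (-0.42) and lin-9 (-0.31), and high around lin-35 (0.28), efl-1 (0.20) and lin-54 (0.20). The part of this drift in the low prep 1 values was not tested. Among members called before, lin-54 kept its call at -0.76 (0.0197) and lin-52, at -0.60 (0.0518), lost its call. Without the drift, hpl-2 was at -0.53 (0.0840), efl-1 at -0.48 (0.316), dpl-1 at -0.34, lin-9 at -0.14 and mep-1 at 0.27, and none of these passed. Which of lin-35, lin-37 and lin-52 pass therefore depends on this correction. Over all 1-gene probes the running median, averaged over preps, was -0.29 at its lowest 5% point and 0.34 at its highest 5% point. The calls of paralogues, neighbours and listed genes given below were not examined with the drift removed.

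**Figure D3:**
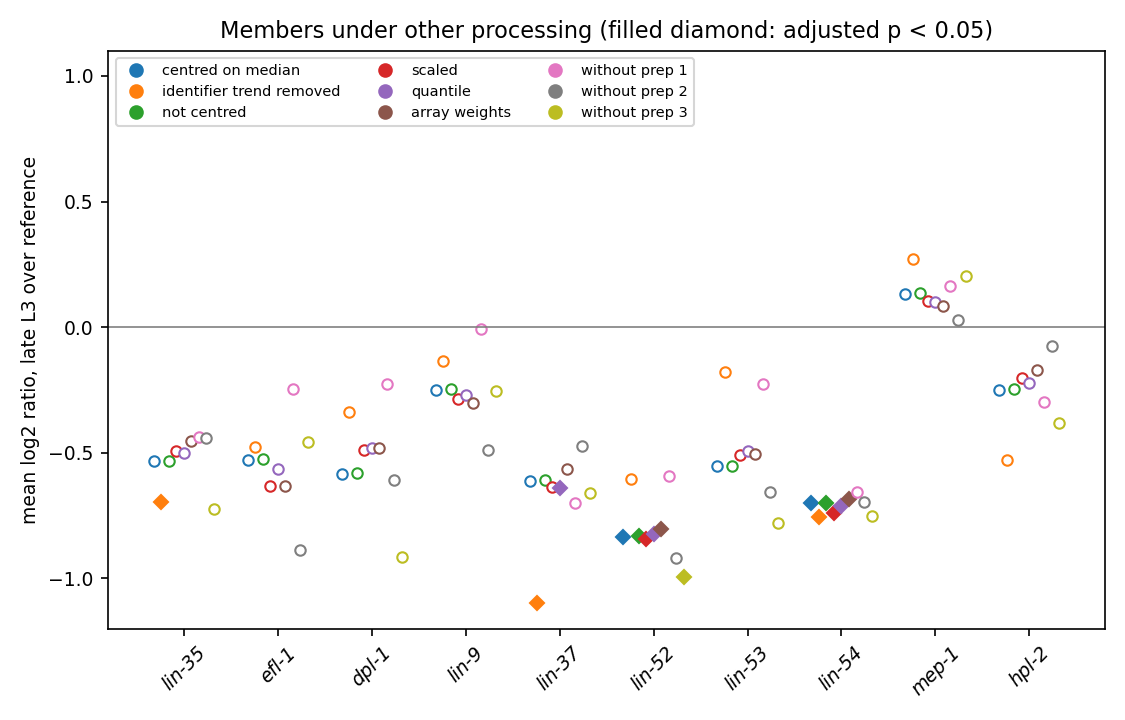
Mean log2 ratio of late L3 over reference (vertical axis) of each member with arrays centred on the median, with the identifier drift removed, under other scalings and without each prep; filled diamonds mark an adjusted p under 0.05. The points of lin-54 lie closest together, between -0.76 and -0.66, while those of lin-37 run between -1.10 and -0.47; no member changed sign.

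The relatives of the members were examined next, since near copies can share a probe's signal. The gene rba-1 (I), a paralogue of lin-53 that lies next to it in the genome, was at -0.97, -0.94 and -0.70. It was lower than the reference at -0.87 ± 0.15 (limma adjusted p = 0.0138; 0.0668 without prep 2), and its values in preps 1 and 2 were close together, whereas those of lin-53 were far apart. Both proteins bind histones, and cross-hybridisation between their probes was not tested. The other HP1 gene, hpl-1 (X), was at -0.90, 0.08 and 0.06, with a mean of -0.25 ± 0.56 like that of hpl-2 (adjusted p = 0.513) but with a different prep at the bottom.

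Genes next to the members in assembly WBcel235 were also read, whatever their strand. All 20 nearest measured neighbours were directly adjacent coding genes. Of these, 4 were lower and 2 higher, 14 missed the threshold, and their median was -0.27. Across all genes 11.9% were lower and 11.4% higher. Both genes beside lin-52 were low with it: arl-5, which encodes an ARF-like GTPase, was at -0.90, -0.91 and -0.31 (adjusted p = 0.0448), and ZK632.9 was at -0.47, -0.83 and -0.55 (adjusted p = 0.0593). All 3 genes of this stretch were below the median on every array. The running median around the lin-52 probe was also below it, at -0.42, -0.25 and -0.03 in preps 1, 2 and 3. The values of arl-5 and ZK632.9 were not read with the drift removed. At lin-35, C32F10.4 was far lower, at -2.27 ± 0.55 (adjusted p = 0.000174), whereas vps-51 on the other side was at -0.40 ± 0.25 (adjusted p = 0.216). The neighbours called higher were the C-type lectin gene clec-239 beside efl-1, at 1.03 ± 0.09 (adjusted p = 0.0056), and enu-3.6 beside hpl-2, at 0.71 ± 0.39 (0.0475). The other neighbour called lower besides arl-5, C32F10.4 and rba-1 was thum-3, beside mep-1, at -0.94 ± 0.39 (0.0149).

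Related genes lay on both sides of the median. They were taken from 11 lists of synMuv, cell cycle, P granule and vulval induction genes. Of 76 listed genes 71 were measured, and 8 were higher, 3 lower and 60 not passed, with a median of -0.02. Of these calls, 3 higher ones came from the P granule list, and 1 higher and 1 lower from vulval induction. The difference between the median of these lists and that of the members was not tested. Across all genes 11.4% were higher and 11.9% lower, and the counts for each list here and below are to be read against those shares. In the list that joins nucleosome remodelling genes with those of the mep-1 complex, 2 of 7 measured genes were higher and 1, rba-1, was lower. The remodeller gene let-418 was at 0.51, 0.88 and 1.24, a mean of 0.87 ± 0.37 (adjusted p = 0.0194), and the MTA-like gene lin-40 at 0.80 ± 0.59 (adjusted p = 0.0476). The let-418 call ended without prep 2 (0.0867) or prep 3 (0.137), and that of lin-40 without prep 2 (0.243). The deacetylase gene hda-1 was at 0.07 ± 0.17 (adjusted p = 0.835). The proteins of mep-1, hda-1 and let-418 form a complex, and of these 3 genes only let-418 passed. The gene dcp-66, of the same list, was at -1.73, -0.44 and -0.38, with prep 1 far below the others (adjusted p = 0.0564).

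Among 7 heterochromatin genes 1 was higher, lin-65, at 0.70 ± 0.37 (adjusted p = 0.0499), a call that ended when any 1 prep was left out (0.0506, 0.222 and 0.0789 without preps 1, 2 and 3). The methyltransferase gene met-2 was at -0.68 ± 0.59 (0.0829) and lin-13 at 0.55 ± 0.14 (0.0840). Of the other lists, 0 members passed in other class B genes (3 measured), SUMO (4), class A (4), Tip60 (5) and synMuv suppressors (6), in limma at the adjusted threshold. In these 5 lists, 2 genes of the Tip60 list were higher and 1 was lower at an unadjusted p under 0.05, and 0 in the rest. The furthest from 0 were lin-36 at -0.46 and tam-1 at 0.38, the SUMO ligase gene gei-17 at -0.46 and smo-1, which encodes SUMO, at 0.30, lin-8 at -0.48 and lin-56 at -0.15, ruvb-1 at 0.57 and gfl-1 at -0.48, and mes-2 at 0.46 and mes-3 at -0.44.

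Few of the cell cycle genes that DREAM or E2F proteins act with or control passed. Of 10 measured regulators of the G1 phase, 1 was lower, the cyclin E gene cye-1, which lin-35 represses. It was at -1.29, -0.96 and -0.73, a mean of -0.99 ± 0.28 (adjusted p = 0.0088), and its call held when any 1 prep was left out. The cullin gene cul-1 was at 0.64 ± 0.25 (0.0569). Of 15 S phase genes 1 was higher, the DNA polymerase epsilon gene pole-1 at 0.69 ± 0.32 (0.0485; lost when any 1 prep was left out, at 0.0584 or above), and 14 did not pass. The ribonucleotide reductase gene rnr-2 was at -2.47, -1.71 and 0.29, so prep 3 stood on the other side of the median from preps 1 and 2 (adjusted p = 0.0513). The larger subunit gene rnr-1, another gene that lin-35 represses, was at -0.87, 0.84 and -0.01.

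Of 4 P granule genes that are silenced in somatic cells by class B proteins, 3 were higher. The helicase gene glh-1 was at 1.97, 2.55 and 1.72 (adjusted p = 0.000198), glh-2 at 1.77 ± 0.47 (adjusted p = 0.000577) and pgl-1 at 0.89 ± 0.52 (0.0259, lost without prep 1 or 2), while pgl-3 was at -0.44 ± 0.22 (adjusted p = 0.166). Among 6 genes of vulval induction, the EGF gene lin-3 was lower at -1.04, -0.90 and -1.02 (mean -0.99 ± 0.07, adjusted p = 0.0067) and the ETS factor gene lin-1 was higher at 0.88 ± 0.22 (0.0140; 0.0798 without prep 2). The call of lin-3, the gene that class A and B proteins keep silent outside its normal cells, held when any 1 prep was left out.

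**Figure D4:**
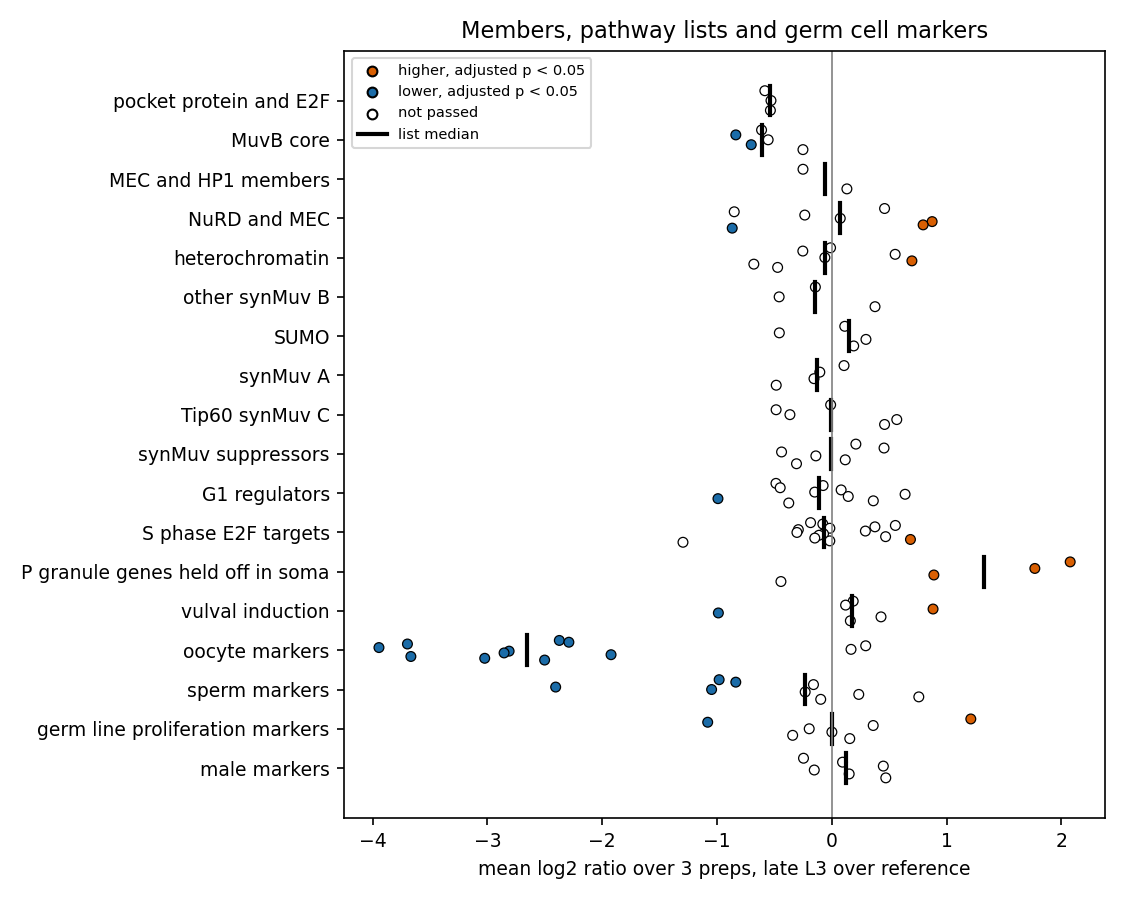
Mean log2 ratio of late L3 over reference over 3 preps (horizontal axis) of each measured gene, by list; orange points are higher and blue points lower at an adjusted p under 0.05, and black bars are list medians. The pocket protein, E2F and MuvB genes lie between -0.84 and -0.25, most pathway lists straddle 0, and 10 of 12 oocyte markers lie far to the left.

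Many of the members are transcribed in germ cells, so markers of germ cells were set beside them. Oocyte markers were far lower, with 10 of 12 called lower, 0 higher, a range of -3.95 to 0.30 and list medians of -2.62, -2.66 and -2.32 in preps 1, 2 and 3. Sperm markers had 4 lower and 0 higher of 9, with medians of -0.25, -0.46 and -0.30. Of these 4, msd-4 alone passed without prep 2 (adjusted p = 0.133 for spe-11, 0.0882 for gsp-3 and 0.0621 for gsp-4), spe-11 was also lost without prep 1 (0.0694) and gsp-4 without prep 3 (0.107), and spe-41 passed as higher without prep 3 (0.0229). Markers of the proliferating and meiotic germ line had 1 higher, fbf-2 (adjusted p = 0.0060; 0.0609 without prep 2), and 1 lower, gld-1, of 7, with medians of 0.19, 0.28 and -0.02. Male markers had 0 called of 6 in limma, and 0 at an unadjusted p under 0.05. The part of germ cell content in the ratios of the members was not tested.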

How the data were processed

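The deposited values were log2 ratios of the 2 channels, 1 column per array, and the sources used here do not give how the authors normalized or filtered them. The log2 base was read from the deposited values: as powers of 2, 100% of low ratios on each array were whole thousandths (tolerance 0.01 of one). Of 20000 probes, 15655 had 1 gene; 15569 of these were renamed by gene ID and 7 by accession through the RefSeq table of WBcel235. After median centring per array and averaging over a gene's probes, the 15143 genes measured on all 3 arrays were tested for a mean other than 0 in R 4.3.3 with limma 3.58.1 (lmFit, eBayes, 2-sided, Benjamini-Hochberg over these genes, threshold 0.05). The test leaves out the reference's own spread and its script was tested on simulated data. Arrays held values for 19855 to 19909 probes, and their number limits precision. Spot intensities were not used here, so background and dye bias were not examined.

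The members, lists, tests and alternatives were chosen with earlier results of these data known. Named genes are the members, their paralogues and neighbours, listed genes past the threshold, and, where fewer than 2 passed, those with the largest means; a few others were named after their values were seen (lin-13, hda-1, dcp-66, rnr-1, pgl-3). Strand was not in the gene table, so neighbours are given for either strand. The genes mbd-2, ubc-9, ssl-1, efl-2 and pri-1 of the pathway lists had no measured 1-gene probe here. Figures were drawn with matplotlib 3.10.9.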

Additional observations from a re-analysis of the deposited data

How the results depend on the processing

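The 12 alternatives gave 120 values for the 10 members: 109 kept their direction and their side of the threshold, 8 lost a call, 3 gained one and 0 changed sign. Some alternatives could not move a member's mean, since each member has 1 probe and a value on all 3 arrays. These were asking for values on 2 arrays, taking each probe alone, a robust prior and each gene's own spread. Most of the kept values belong to members that did not pass before or after. For lin-52 and lin-54, 8 of 12 values each kept the call. The lost calls were those of lin-52 and lin-54, 4 each, and the gained ones those of lin-37 (2, with quantile normalization and without the identifier drift) and lin-35 (1). Where each gene's own spread alone was used, 0 genes were higher, 0 lower and 0 members lower, while 1468 genes, 1804 genes and 2 members had an unadjusted p under 0.05; that test has 2 degrees of freedom. Leaving out a prep gave 768 to 1750 higher genes and 1009 to 1542 lower genes, against 1720 and 1804 with all, and 0 to 1 lower members against 2. The low ends for all genes came without prep 2. With quantile normalization and with the drift removed, 3 members were lower. No member was higher under any of the 12. No paired analysis was possible because there is 1 group of larvae and the reference shares every array.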
